A study of Drosophila melanogaster with 4 samples.

Results

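Retention of introns of at most 70 bases was measured in whole Drosophila melanogaster larvae that carry Smn mutations and in wild type larvae. The members were all retained intron events, listed in every comparison of a mutant with a wild type library, whose 2 exons lie at most 70 bases apart. They numbered 8065 of 23758 retained intron events of any length, and each was a different intron. Their lengths ran over 41 to 70 bases, with quartiles of 57, 60 and 64 bases, and 33.4% were a multiple of 3. By chromosome, 2037 lay on 2R, 1993 on 3R, 1421 on 3L, 1389 on 2L, 1063 on X and 162 on the small chromosome 4. Of the 8065, 1232 overlapped another listed short intron on the same strand, which means that they share read pairs.

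The mutant larvae had the genotype SmnX7/D, given in the labels as their strain, and the wild type larvae were of the strain Oregon R. Each group had 2 libraries of polyA RNA, both from larvae of 74 ± 2 hours after egg laying, grown at 24 °C. The labels do not say that the 2 libraries of a group came from separate cultures, so that p-values measure the spread between libraries, which may be technical. Genotype, strain background and stage of development cannot be told apart, since the groups were matched by age and the series is about mutants that arrest in development. In whole animals, fewer cells of a type and less RNA per cell cannot be told apart either. The gene Smn itself had no event among those matched to genes, so its level was not analysed here.

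Smn is the core of a complex that loads a ring of Sm proteins onto the small nuclear RNAs of the spliceosome, and these particles then recognise the ends of introns and remove them. Many Drosophila introns are as short as those described here, and their splice sites are thought to be paired across the intron itself. Each such intron has a donor site at its 5′ end, a branch point, and an acceptor site that ends in AG. An intron that stays in a polyadenylated RNA can be a slow or failed splicing event, and it can also be a regular isoform of the gene.

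Of the 8065 short introns, 7014 could be matched to an annotated intron of the dm6 assembly, and 6954 of these (99.1%) began with GT and ended with AG. A further 58 began with GC. The donor hexamers GTAAGT and GTGAGT stood at the start of 38.2% of the matched short introns and of 38.3% of 24399 annotated introns of the same lengths. CTAAT or CTAAC, which resemble the branch point sequence, occurred, on the strand of the gene only, within the last 40 bases in 21.1% of the matched short introns and in 18.9% of those annotated introns. A match describes letters and not a used site.

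The 9 sequences here belong to coding introns that the results turn on. They are shown so that introns whose retention differed can be read beside other introns of the same gene. Each is the RefSeq sequence of the dm6 assembly, on the strand of the gene, 5′ to 3′. Capitals mark the first 6 bases, the last 3 bases and any CTAAT or CTAAC in the last 40 bases.
RpS21, 2L:2856569-2856630, plus strand: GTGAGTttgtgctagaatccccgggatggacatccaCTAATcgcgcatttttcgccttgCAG
Lsd-1 intron a, 3R:23764317-23764385, plus strand: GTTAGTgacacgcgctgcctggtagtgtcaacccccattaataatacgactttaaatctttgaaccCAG
Lsd-1 intron b, 3R:23764685-23764748, plus strand: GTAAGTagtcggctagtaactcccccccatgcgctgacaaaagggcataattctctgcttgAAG
Lsd-1 intron c, 3R:23766067-23766129, plus strand: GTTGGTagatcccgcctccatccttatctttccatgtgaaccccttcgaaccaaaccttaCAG
Lsd-1 intron d, 3R:23766308-23766373, plus strand: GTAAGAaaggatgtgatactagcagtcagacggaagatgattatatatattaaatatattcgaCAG
crc, 2L:21312044-21312097, plus strand: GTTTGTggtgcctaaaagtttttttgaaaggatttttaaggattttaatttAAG
Lsp1gamma, 3L:66722-66786, plus strand: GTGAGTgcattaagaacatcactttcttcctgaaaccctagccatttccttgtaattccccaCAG
Lsp1beta, 2L:898942-899009, plus strand: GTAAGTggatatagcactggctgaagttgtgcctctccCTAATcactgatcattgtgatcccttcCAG
RFeSP, 2L:1612989-1613043, minus strand: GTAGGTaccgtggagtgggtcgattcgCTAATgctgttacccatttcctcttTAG

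Lsd-1 introns a and c and the crc intron began with GTT, and their retention was called higher in mutants. Lsd-1 introns b and d began with GTA and had too few retained pairs to enter the fit that made these calls. A start of GTT was found in 4 of the 41 matched introns called higher (9.76%), in 10 of the 164 matched introns tested (6.1%) and in 371 of all 7014 matched short introns (5.29%). This start was looked at after the sequences had been seen.

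Depth sets which short introns can be compared. Retained-specific read pairs over all short introns totalled 324796 and 315301 in the mutant libraries, against 206640 and 181549 in the wild type libraries. Spliced-specific pairs totalled 652784 and 653167 in mutants, against 758178 and 541895 in wild type, so that these totals overlap between groups. The retained totals do not overlap. These totals are not scaled for depth. Those of introns over 70 bases did not overlap either, with 5.11e+06 and 4.33e+06 retained pairs in mutants, against 2.68e+06 and 2.07e+06 in wild type. At least 20 isoform-specific pairs in every library were found for 2986 of the 8065 introns (37%). Of these, 205 also averaged at least 10 retained and 10 spliced pairs over the 4 libraries and entered the fit, and 7860 short introns did not. The left-out introns were 5079 with fewer than 20 isoform-specific pairs in some library, 2389 with too few retained pairs and 392 with too few spliced pairs. Of the 205 in the fit, 72 passed the minimum through retained pairs of the mutants only and 6 through those of the wild type only. By spliced pairs, 15 passed through those of the mutants only and 10 through those of the wild type only. Counts and medians over these 205 introns therefore describe them and are no measure of all short introns.

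Across libraries, log2 spliced pairs of 2442 short introns with at least 20 in each correlated at 0.974 between the mutant libraries, at 0.803 between the wild type libraries and at 0.715 to 0.86 between groups (Pearson, a description over introns that share libraries). Wild type library 2 stood apart most from the others by this measure. Of the marker lists used to check the label of whole larvae, muscle had events for 5 of 5 genes, tracheae and epidermis for 4 of 4, nervous system for 4 of 5, gut for 2 of 4, fat body for 1 of 4 and germ line for 1 of 3. Spliced pairs summed over the muscle markers were 68973 and 40092 in mutants, against 25971 and 10465 in wild type. Those over the tracheal and epidermal markers were 2241 and 1798 in mutants, against 841 and 331 in wild type. Neither of these sums overlapped between groups. The fat body sum was 8108 and 8644 in mutants, against 10172 and 3388 in wild type. The nervous system sum was 317 and 296 in mutants, against 300 and 466 in wild type, and the gut sum was 624 and 901 in mutants, against 669 and 334 in wild type. These 3 sums overlapped. The germ line marker vas had 11 and 7 pairs in mutants and 1 and 3 in wild type, and no other germ line marker had an event. The part of such differences in makeup in the results that follow was not tested.

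Most short introns were spliced out in both groups. The retained fraction is the posterior mean that the authors computed with MISO, which takes account of isoform length, so that it differs from the plain share of retained pairs. It had medians of 0.05 and 0.05 in the mutant libraries and of 0.04 and 0.05 in the wild type libraries. This difference of medians, 0.005, overlapped between groups (exact permutation p = 1, n = 2 each). The mean fraction was 0.165 and 0.161 in mutants, against 0.145 and 0.149 in wild type. These means do not overlap, and the two-sided exact permutation p of 0.333 is the smallest that 2 against 2 libraries can give. A fraction of at least 0.2 was listed for 1657 and 1591 introns in mutants, against 1414 and 1482 in wild type. The fraction stayed at or under 0.1 in every library for 4637 introns (57.5%), and it was at least 0.5 in every library for 731 (9.06%). No retained pair was seen in any library for 1038.

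Among the 2986 introns with at least 20 isoform-specific pairs in each library, the mean share of retained pairs was 18.9% and 18.4% in mutants, against 16.5% and 16.5% in wild type. The median share was 2.5% and 2.22% in mutants, against 0.557% and 0.441% in wild type. In the 2389 introns with fewer than 10 retained pairs on average, the mean share was 3.41% and 2.99% in mutants, against 1.34% and 1.45% in wild type. None of these 3 measures overlapped between groups, and each had an exact permutation p of 0.333 (n = 2 each). The higher mean in mutants thus held also where retention was rare.

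**Figure D1:**
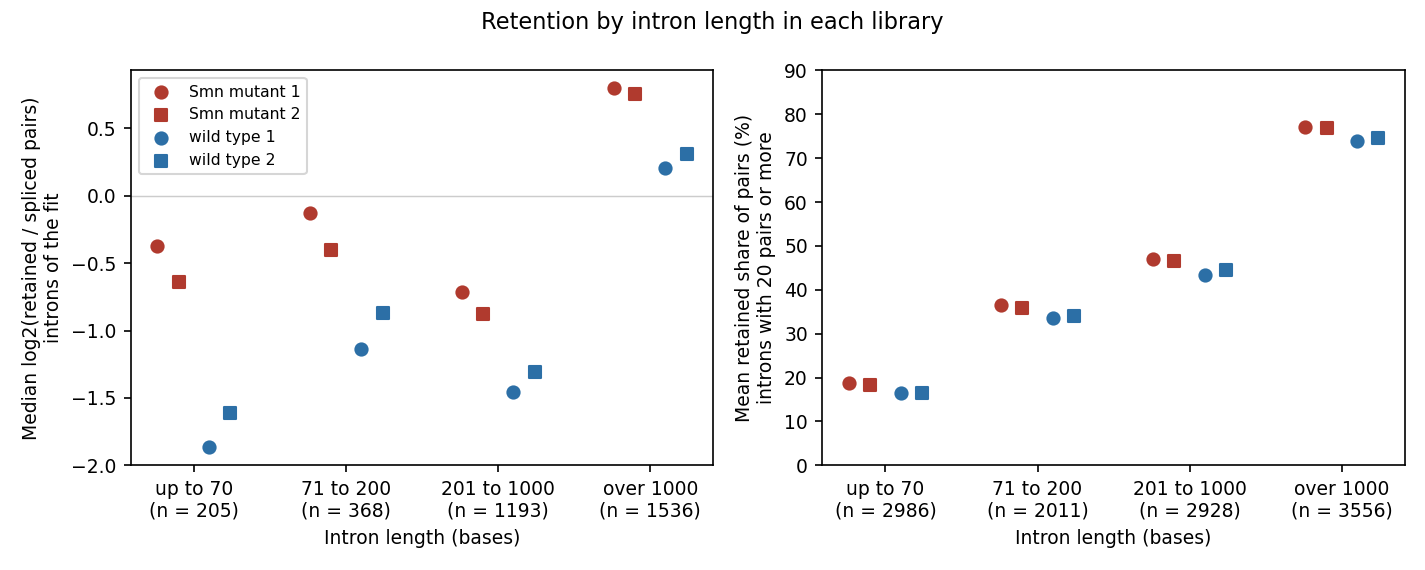
Retention in each library by intron length class, as the median over introns of the fit of log2 retained to spliced pairs (left) and as the mean retained share in percent over introns with at least 20 isoform-specific pairs in every library (right). Each point is 1 library, with mutants in red and wild type in blue. In introns up to 70 bases the mutant libraries had median log2 ratios of -0.37 and -0.64, above the wild type values of -1.87 and -1.62, and shares of 18.9% and 18.4% against 16.5% and 16.5%.

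The log2 ratio of retained to spliced pairs had medians over the 205 introns of -0.37 and -0.64 in mutants (mean -0.51 ± 0.19 SD), against -1.87 and -1.62 in wild type (mean -1.74 ± 0.18 SD, n = 2 each). The difference was 1.24 log2 units (exact permutation p = 0.333). Over all 2986 introns with at least 20 pairs, the medians were -4.92 and -5.13 in mutants, against -5.98 and -5.78 in wild type, a difference of 0.85 with the same p. Introns longer than 70 bases also had higher ratios in mutants, by 0.54 in the fit and by 0.49 with at least 20 pairs.

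Whether the shift of short introns exceeded that of longer ones was tested over libraries. In the fit, the median of the short introns minus that of the longer introns was -0.41 and -0.57 in mutants, against -1.23 and -1.14 in wild type. The difference of 0.69 did not overlap between groups and had an exact permutation p of 0.333, also after adjustment over 4 length comparisons. Over introns with at least 20 pairs it was 0.36. Over introns with at least 10 pairs of each isoform in each group, a limit chosen after the data were seen, it was 0.058. By the mean retained share over introns with at least 20 pairs, mutants exceeded wild type by 2.14 percentage points in short introns and by 2.69 in longer ones. By the mean fraction over all events, they did so by 0.0155 in short introns and by 0.0186 in longer ones. The size of the difference between length classes therefore depended on which introns were admitted, and its direction depended on the measure.

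At the edge of the length limit, introns of 66 to 70 bases had a mean retained share of 22.8% and 22.2% in mutants and of 20.1% and 20.3% in wild type (624 introns). Introns of 71 to 75 bases had 24.4% and 24% in mutants and 21.5% and 21.6% in wild type (343 introns). In the fit, the median log2 ratio of introns of 66 to 70 bases was 0.26 and 0.11 in mutants, against -0.75 and -0.83 in wild type, a difference of 0.98 (59 introns). For introns of 71 to 75 bases it was -0.86 and -0.92 in mutants, against -3.91 and -4.07 in wild type, a difference of 3.10 (37 introns). The fitted difference was thus larger just outside the length limit than just inside it.

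By limma with Benjamini-Hochberg adjustment over all 3302 introns of the fit, retention was higher in mutants for 43 of the 205 short introns and lower for 2. The background in this fit was 12.1% called in either direction, 11% higher and 1.09% lower, and the 45 short introns made up 22%. Of the 368 introns of 71 to 200 bases, the nearest length class, 19.3% were called, so that the share of called introns was near that of the short ones. An unadjusted p under 0.05 was found for 107 of the 205 (52.2%), against 38.9% of introns of 71 to 200 bases and 31.2% of all introns over 70 bases. With no minimum on each isoform, limma called 9 of the 2986 introns, against a background of 0.392%. The median log2 change was 1.19 over the 205 short introns and 0.55 over all 3302, and 170 of the 205 changes were above 0. The ratios of both mutant libraries exceeded those of both wild type libraries for 148 of the 205 introns (72.2%, background 50.2%). Over the 2986 introns with at least 20 pairs, this held for 1233 (41.3%), close to the background of 42.8%.

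Without mutant library 1 the number of calls was 14, and without mutant library 2 it was 23. Of the 45 calls, 13 were made without each library in turn: RpS21, Lsd-1 intron a, crc, Pdhb, Vha55, Prosalpha5, CG9691, CG16926, Lsp1gamma, Lcp2, Lcp3, Lcp4 and the apolpp intron of 57 bases. Of the 45, 23 had at least 10 pairs of each isoform on average in both groups.

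The 43 introns called higher had log2 changes of 0.67 to 6.39, with a median of 2.81. After scaling to the total of spliced pairs, retained pairs were higher in both mutant libraries for 38 of them and spliced pairs were lower in both for 27, with both in 22. Over all 205 short introns tested, these numbers were 139, 64 and 34. Of the 43, 18 entered the fit through retained pairs of the mutants only, so that a high ratio in mutants was a condition of their being tested, and their p-values are given as a description. Among the introns named here these are Lsd-1 a and c, Prosalpha5, Lcp2, Lcp3, Lcp4, VhaM9.7-b, CG12375, CG12868, the intron of Muted and CG7071, and a called apolpp intron (dm3 4:1096363-1096417). The introns of RpS14a, RpS14b, eIF3g1, Mf and Cyp309a1 and the first of apolpp were not called, but entered the fit in the same way. In 5 of the 43 introns the retained pairs did not separate upwards while the spliced pairs were lower in both mutant libraries, so that the ratio there rests on fewer spliced pairs. Retained fractions did not overlap between groups for 42 of the 43, and the median difference in fraction was 0.14. Fractions differed by 0.2 or more for 13 and by less than 0.05 for 11. Over the 205 tested, fractions did not overlap for 142, with a median difference of 0.035. They differed there by 0.2 or more for 25 and by less than 0.05 for 100. Of the 41 introns called higher that had a gene match, 23 were coding in every transcript. Of the others, 16 lay in the 5′ UTR of some transcript and 2 in a 3′ UTR. The reference lists the whole intron as part of an exon of another transcript of the gene for 14 of these 41 (34.1%), and for 30.5% of the 164 matched introns tested. The 14 include introns of RpS21, ATPsynF, ATPsyngamma, JTBR, Pdhb, mEFTu1, CG9691, CG1416, Prosalpha5, Vha55, Lsd-1 (a), and Muted and CG7071. The called introns of CG32641, CG12375, CG12868, crc, Lsd-1 (c), fabp, VhaPPA1-1, VhaM9.7-b, apolpp, and the Lsp1 and Lcp genes are not among them.

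**Figure D2:**
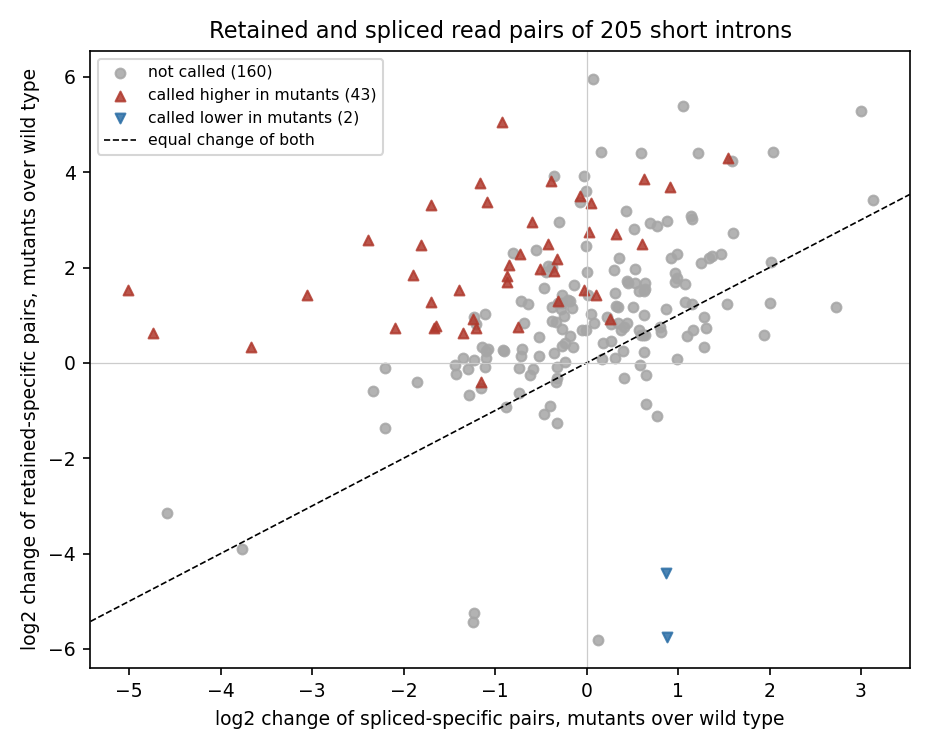
Change of retained-specific pairs (vertical) against change of spliced-specific pairs (horizontal) in the 205 short introns of the fit, both as log2 of mutants over wild type after scaling to total spliced pairs. The 43 introns called higher in mutants (red triangles) lie above the dashed line of equal change, and the 2 called lower (blue triangles) lie below it.

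Among genes of translation, RpS21 encodes a protein of the small ribosomal subunit. Its coding intron of 62 bases (2L:2856569-2856630 in both dm3 and dm6) was retained at a fraction of 0.79 and 0.75 in mutants, against 0.25 and 0.17 in wild type. Retained and spliced pairs numbered 1727 and 79 in mutant library 1 and 1795 and 107 in mutant library 2. In wild type there were 555 retained and 498 spliced pairs in library 1, and 560 and 783 in library 2. In mutants, retained pairs thus outnumbered spliced pairs by far, while the wild type libraries held similar numbers of both. The log2 ratio was 4.42 ± 0.31 (SE) higher in mutants (limma, adjusted p = 0.00296). The reference lists this intron as exonic in another RpS21 transcript, as it does for other called introns listed above. An overlapping event of 58 bases (2L:2856573-2856630) shares its acceptor and had fractions of 0.99 and 0.99 in mutants, against 0.48 and 0.33 in wild type, with no spliced-specific pair in any library.

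RpS14a and RpS14b are near-identical neighbouring genes whose reads may be split between them. Their introns of 59 bases each had fractions of 0.01 and 0.01 in mutants and of 0 and 0 in wild type. RpS14a had 37 and 24 retained pairs in mutants, against 3 and 0 in wild type, beside 2507 and 2566 spliced pairs in mutants and 2518 and 2927 in wild type (limma, adjusted p = 0.0725). The introns of both genes entered the fit through retained pairs of the mutants only, so that this p-value is a description. The RpS3A intron of 56 bases on chromosome 4 had fractions of 0.97 and 0.95 in mutants, against 0.96 and 0.96 in wild type, with an adjusted p of 0.0871 by limma. It overlaps the short intron with the most isoform-specific pairs of all those called (dm3 4:87648-87717, no gene match). The fraction of that intron was 0.96 and 0.96 in mutants, against 0.94 and 0.94 in wild type, with a log2 change of 0.76 ± 0.16 (SE; adjusted p = 0.0361 by limma). Its retained pairs were not higher in mutants, with 11779 and 10157 against 11596 and 12892 in wild type.

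mEFTu1 encodes the mitochondrial elongation factor Tu, which brings aminoacyl-tRNA to the ribosome of the organelle. Its 5′ UTR intron of 56 bases (dm3 2R:9395164-9395219) had a fraction of 0.5 and 0.43 in mutants, against 0.11 and 0.05 in wild type. Retained pairs numbered 183 and 152 in mutants, against 18 and 3 in wild type, while spliced pairs numbered 91 and 95 in mutants, against 67 and 39 in wild type (limma, log2 change 3.01 ± 0.51 SE, adjusted p = 0.0211). eIF3g1, a subunit of initiation factor 3, had fractions of 0.08 and 0.06 in mutants and of 0.01 and 0 in wild type and missed the threshold (limma, adjusted p = 0.0977). Its intron entered the fit through retained pairs of the mutants only, so that its p-value is a description.

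Among genes of mitochondrial energy metabolism, ATPsynF encodes a subunit of the mitochondrial ATP synthase. The fraction of its 5′ UTR intron of 67 bases was 0.82 and 0.83 in mutants, against 0.35 and 0.3 in wild type. There were 286 and 280 retained pairs in mutants, against 35 and 14 in wild type, and 12 and 10 spliced pairs in mutants, against 13 and 6 in wild type. The retained pairs of the groups did not overlap, and the spliced pairs did (limma, log2 change 3.30 ± 0.53 SE, adjusted p = 0.0199). The intron met the minimum of spliced pairs through the mutants only. ATPsyngamma, another subunit, had a fraction of 0.3 and 0.3 in mutants, against 0.22 and 0.22 in wild type, the smallest log2 change among the introns called higher at 0.67 ± 0.14 (SE, limma, adjusted p = 0.0346).

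Pdhb encodes the beta subunit of the first enzyme of the pyruvate dehydrogenase complex. Its first intron, of 68 bases in the 5′ UTR, had a fraction of 0.53 and 0.43 in mutants, against 0.08 and 0.05 in wild type. Retained pairs were 190 and 202 in mutants, against 27 and 5 in wild type, and spliced pairs were 61 and 91 in mutants, against 100 and 44 in wild type (limma, log2 change 3.43 ± 0.45 SE, adjusted p = 0.0112). Both other short introns of Pdhb with at least 20 pairs had at most 2 retained pairs in any library. COX5A, of cytochrome c oxidase, had 0.19 and 0.15 in mutants against 0.17 and 0.17 in wild type, with an adjusted p of 0.089 by limma.

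RFeSP encodes the Rieske iron-sulfur protein of the respiratory chain, and the change of its intron was not called. Retained pairs of the 55 base intron were 1 and 0 in mutants, against 94 and 15 in wild type, beside 433 and 475 spliced pairs in mutants and 583 and 182 in wild type. The fraction was 0 and 0 in mutants, against 0.08 and 0.04 in wild type, with a limma adjusted p of 0.0531 in the fit. This intron entered the fit through retained pairs of the wild type only, so that its p-value is a description. An overlapping event of 51 bases (2L:1612989-1613039), whose donor lies 4 bases further downstream, had 1 and 0 retained pairs in mutants, against 91 and 14 in wild type. It is 1 of the 2 short introns called lower (limma, adjusted p = 0.0334), and it entered the fit through retained pairs of the wild type only, and the nearly equal retained pairs of both events are shared reads.

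The other intron called lower lies in CG16926 and had the larger fall in fraction of the 2. This coding intron of 69 bases (dm3 2R:15388365-15388433) had a fraction of 0.03 and 0.03 in mutants, against 0.47 and 0.39 in wild type. Retained pairs were 19 and 32 in mutants, against 345 and 569 in wild type, and spliced pairs were 371 and 599 in mutants, against 135 and 294 in wild type. Retained pairs were thus few in mutants and outnumbered spliced pairs in wild type (limma, log2 change -5.31 ± 0.31 SE, adjusted p = 0.00214).

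**Figure D3:**
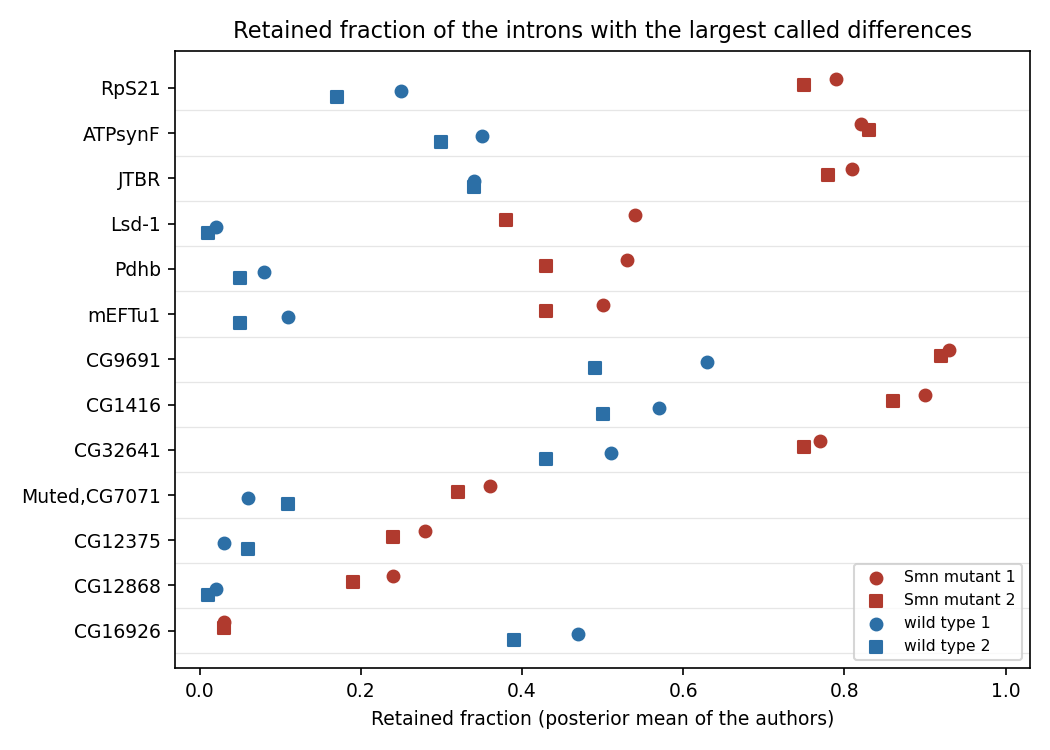
Retained fraction in each library, the authors' posterior mean, for the 12 matched introns called higher with the largest difference in fraction and for CG16926, which was called lower. Mutants are red and wild type blue. All 13 introns were chosen from those whose fractions do not overlap between groups. RpS21 at the top has 0.79 and 0.75 in mutants against 0.25 and 0.17 in wild type.

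Among genes of the fat body and of lipid handling, Lsd-1 encodes a perilipin, a protein that coats lipid droplets in fat body cells and regulates lipolysis. Intron a, the first, of 69 bases, had a fraction of 0.54 and 0.38 in mutants, against 0.02 and 0.01 in wild type. Retained and spliced pairs numbered 308 and 86 in mutant library 1, 188 and 104 in mutant library 2, 11 and 205 in wild type library 1, and 2 and 116 in wild type library 2. Retained pairs thus outnumbered spliced pairs in mutants and were few in wild type (limma, log2 change 5.76 ± 0.83 SE, adjusted p = 0.0151). Intron c had fractions of 0.05 and 0.07 in mutants, against 0 and 0 in wild type, with 34 and 41 retained pairs in mutants against 3 and 1 in wild type (limma, log2 change 4.13 ± 0.75 SE, adjusted p = 0.0247). Introns a and c both entered the fit through retained pairs of the mutants only. Introns b and d were too low in retained pairs for that fit, with at most 16 in any library. In the fit with no minimum, which holds all 4 introns, none of them was called. There the limma adjusted p was 0.0789 for a, 0.207 for b, 0.0536 for c and 0.216 for d, and the log2 changes of b and d were 1.65 ± 0.52 and 1.04 ± 0.34 (SE).

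apolpp encodes the apolipophorin precursor, the main lipid carrier protein of the haemolymph, and had 5 short introns tested, more than any other gene. The first lies in the 5′ UTR and the others are coding. Their log2 changes ran over 1.48 to 3.23, and 3 were called. The change of 3.23 is that of the 5′ UTR intron, which was not called. That intron entered the fit through retained pairs of the mutants only, and so did 1 of the 3 called (dm3 4:1096363-1096417). A high ratio in mutants was thus a condition of testing these introns. The intron of 57 bases had 192 and 204 retained pairs in mutants, against 46 and 10 in wild type, and 1997 and 2079 spliced pairs in mutants, against 2397 and 623 in wild type. The ratio rose by 2.37 ± 0.23 log2 units (SE; adjusted p = 0.00622 by limma), although its fraction was only 0.05 and 0.05 in mutants, against 0.01 and 0.01 in wild type.

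The larval serum proteins are storage hexamerins that the fat body secretes late in larval life. The intron of Lsp1beta had 1525 and 1791 spliced pairs in mutants, against 28377 and 10213 in wild type. Its retained pairs overlapped between groups, with 31 and 13 in mutants and 33 and 1 in wild type. The called change of its ratio (limma, log2 3.82 ± 0.63 SE, adjusted p = 0.0204) thus went with far fewer spliced pairs, and its fraction was at most 0.01 in every library. The retained pairs of Lsp1gamma overlapped as well, with 48 and 26 in mutants and 46 and 1 in wild type. Its spliced pairs were 507 and 1049 in mutants, against 26874 and 11012 in wild type (limma, log2 change of the ratio 5.19 ± 0.73 SE, adjusted p = 0.0146). In the third subunit gene, Lsp1alpha, the spliced pairs themselves were called lower. The fatty acid binding protein gene fabp was alike, with 49 and 42 retained pairs in mutants and 46 and 9 in wild type, beside 3867 and 3801 spliced pairs in mutants and 11639 and 5792 in wild type (limma, log2 change 1.81 ± 0.37 SE, adjusted p = 0.0323).

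The larval cuticle protein genes Lcp2, Lcp3 and Lcp4 lie close together on 2R and resemble each other in sequence, so that reads could be assigned to the wrong copy. Lcp4 had 130 and 48 retained pairs in mutants, against 10 and 5 in wild type, and 5172 and 1753 spliced pairs in mutants, against 9908 and 9265 in wild type. The ratio rose by 4.90 ± 0.44 log2 units (SE; adjusted p = 0.00618 by limma), and its fraction was 0.01 and 0.01 in mutants, against 0 and 0 in wild type. Lcp3 had 47 and 23 retained pairs in mutants, against 8 and 2 in wild type, with 2061 and 792 spliced pairs in mutants, against 9096 and 4283 in wild type. Lcp2 gave the largest log2 change of all called short introns at 6.39 ± 0.63 (SE, limma, adjusted p = 0.00622), from 21 and 10 retained pairs in mutants against 6 and 3 in wild type and 199 and 68 spliced pairs in mutants against 3601 and 3725 in wild type. In all 3 genes retained pairs were higher and spliced pairs lower in both mutant libraries, and the difference in spliced pairs was far larger in number. As log2 changes after scaling, retained and spliced pairs changed by 3.32 and -1.70 in Lcp4 and by 2.58 and -2.39 in Lcp3. In Lcp2 they changed by 1.52 and -5.02. The spliced pairs thus made up the larger part of the change in ratio in Lcp2 only.

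The vacuolar ATPase pumps protons into endosomes and lysosomes and across many epithelia. Vha55, its B subunit, had a first intron of 64 bases in the 5′ UTR with a fraction of 0.22 and 0.19 in mutants, against 0.04 and 0.04 in wild type. Retained pairs were 501 and 643 in mutants, against 69 and 14 in wild type, and spliced pairs were 446 and 596 in mutants, against 424 and 95 in wild type (limma, log2 change 2.76 ± 0.20 SE, adjusted p = 0.00296). Another short intron of Vha55 had 6 and 6 retained pairs in mutants, against 5 and 0 in wild type, with 2093 and 2564 spliced pairs in mutants, against 1546 and 334 in wild type. The log2 change of that second intron was -0.24 ± 0.41 (SE, fit with no minimum). VhaPPA1-1 and VhaM9.7-b, membrane subunits of the same pump, each had 1 called intron, with log2 changes of 1.53 ± 0.25 and 2.93 ± 0.59 (SE, limma, adjusted p = 0.0204 and 0.0318). The called VhaPPA1-1 intron, of 59 bases, overlaps an event of 63 bases (dm3 3R:10729610-10729672). That event had a fraction of 0.41 and 0.41 in mutants, against 0.16 and 0.11 in wild type, and was not called (limma, adjusted p = 0.121).

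Prosalpha5 encodes an alpha subunit of the 20S proteasome. Its first intron, of 61 bases in the 5′ UTR, had a fraction of 0.2 and 0.22 in mutants, against 0.02 and 0.02 in wild type, with 34 and 38 retained pairs in mutants against 4 and 6 in wild type, where the mean is under the minimum of 10 (limma, log2 change 4.26 ± 0.55 SE, adjusted p = 0.0112). crc encodes cryptocephal, the transcription factor related to mammalian ATF4. Its coding intron of 54 bases had 161 and 130 retained pairs in mutants, against 12 and 18 in wild type, and 314 and 286 spliced pairs in mutants, against 417 and 363 in wild type. The fraction was 0.16 and 0.15 in mutants, against 0.01 and 0.02 in wild type (limma, log2 change 3.57 ± 0.36 SE, adjusted p = 0.00622). The spread within each group was small beside the distance between groups in both introns.

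JTBR (0.81 and 0.78 in mutants, against 0.34 and 0.34 in wild type) was the third of the 12 matched introns with the largest rise in fraction. CG9691, in a 3′ UTR, had 0.93 and 0.92 in mutants, against 0.63 and 0.49 in wild type. CG1416 had 0.9 and 0.86 in mutants, against 0.57 and 0.5 in wild type, and CG32641 had 0.77 and 0.75 in mutants, against 0.51 and 0.43 in wild type. The other 3 had lower fractions. The intron annotated for both Muted and CG7071 had 0.36 and 0.32 in mutants, against 0.06 and 0.11 in wild type. CG12375 had 0.28 and 0.24 in mutants, against 0.03 and 0.06 in wild type. CG12868 had 0.24 and 0.19 in mutants, against 0.02 and 0.01 in wild type. Limma's adjusted p for these 7 lay between 0.00863 for CG9691 and 0.0411 for Muted and CG7071. The nearby gene CG32640 also has a 5′ UTR intron of 53 bases, the length of the CG32641 intron. Its fraction was 0.78 and 0.79 in mutants, against 0.62 and 0.48 in wild type, and it was not called (limma, adjusted p = 0.124). Whether reads were shared between CG32640 and CG32641 was not tested. JTBR had 4 and 7 spliced pairs in mutants, against 13 and 28 in wild type. It thus entered the fit through spliced pairs of the wild type only, and its p-value is a description. Among called introns with no gene match, dm3 2R:9846641-9846709 had the largest rise (limma, adjusted p = 0.0489). Its fraction was 0.85 and 0.79 in mutants, against 0.54 and 0.5 in wild type. This intron, too, entered through spliced pairs of the wild type only, with 8 and 10 in mutants, against 16 and 20 in wild type.

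Of the 6 introns tested that had 51 bases or fewer, 5 were not called, and the sixth is the 51 base event that overlaps the RFeSP intron. The 48 base intron of CG1674 had a fraction of 0.04 and 0.03 in mutants, against 0.07 and 0.05 in wild type (limma, adjusted p = 0.276). A 50 base intron without a gene match (dm3 3L:228244-228293) had 0.97 and 0.94 in mutants, against 0.94 and 0.95 in wild type (limma, adjusted p = 0.612). The 51 base intron of the cytochrome P450 gene Cyp309a1 had 0.03 and 0.05 in mutants, against 0.02 and 0.01 in wild type (limma, adjusted p = 0.124). The Cyp309a1 intron entered the fit through retained pairs of the mutants only, so that its p-value is a description.

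Called short introns were set beside other introns of their gene as a description. In 11 genes a called short intron could be set beside at least 1 uncalled short intron with at least 20 pairs in every library. Of 14 such neighbours, 12 had a lower log2 change than each called intron of their gene, and 12 had a fraction of at most 0.05 in every library. The VhaPPA1-1 neighbour is counted among the 14, although it overlaps the called intron, shares its donor site and has nearly the same retained pairs. The neighbours' log2 changes in the fit with no minimum ran over -1.78 to 3.76, with a median of 1.15. Some neighbours, such as the Pdhb intron with a change of -0.91, had no retained pair in any library. Their changes rest on spliced pairs and on the 0.5 added to each count. The neighbours were set apart by not being called, and most had too few retained pairs to be in the fit. That choice favours lower changes, and no test was made.

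**Figure D4:**
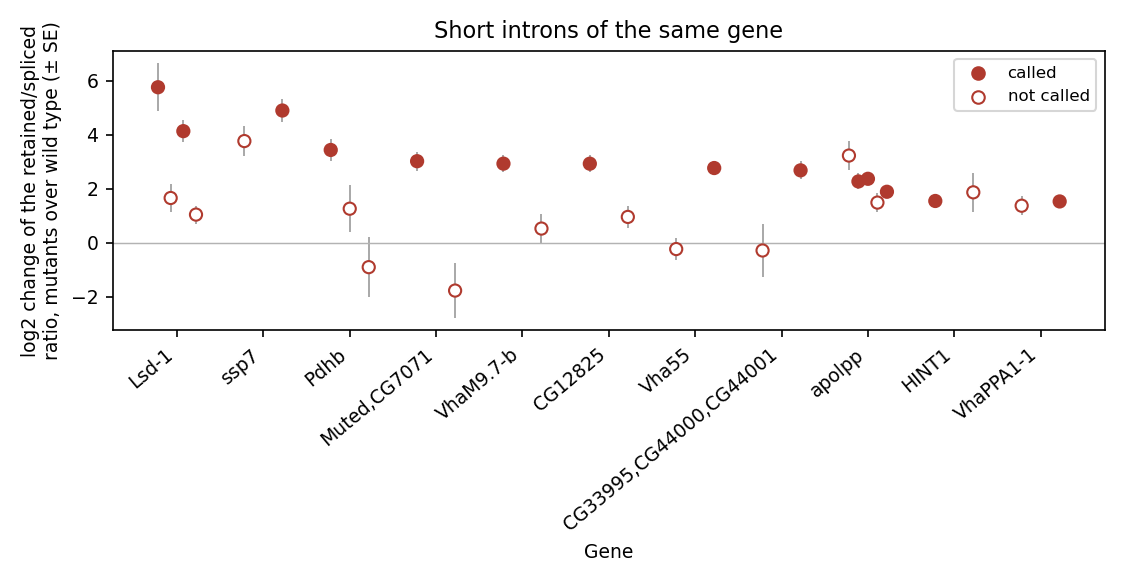
Log2 change of the retained to spliced ratio, mutants over wild type, of each short intron in the 11 genes with both a called (filled) and an uncalled (open) intron; calls are those of the fit with a minimum, changes are from the fit with no minimum on each isoform, bars are SE and introns of a gene run left to right by position. The Lsd-1 introns have 5.76, 1.65, 4.13 and 1.04, and the introns of Vha55 have -0.24 and 2.76. The introns drawn for VhaPPA1-1 overlap and share read pairs.

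Properties of the introns that the length rule did not use were compared over the 2986 introns with at least 20 pairs. The mean retained share of introns that are coding in every transcript was 4.86% and 4.38% in mutants, against 2.53% and 2.62% in wild type (2379 introns). For introns in the 5′ UTR of some transcript it was 49.5% and 48.8% in mutants, against 41.4% and 41.7% in wild type (137 introns). First introns had 24.1% and 23.2% in mutants, against 18.8% and 18.9% in wild type, while inner introns had 5.58% and 5.14% in mutants, against 3.32% and 3.49% in wild type. The share was thus higher in mutants in each of these 4 groups. The difference was larger in percentage points for 5′ UTR than for coding introns and for first than for inner introns, and the ratio of mutants to wild type was larger for coding and for inner introns. Sole introns of a transcript had 12.9% and 12.1% in mutants, against 8.97% and 9.06% in wild type, and last introns had 6.82% and 6.36% in mutants, against 4.87% and 4.78% in wild type.

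Introns with a donor of GTAAGT or GTGAGT had a mean retained share of 4.84% and 4.3% in mutants, against 2.55% and 2.62% in wild type (1052 introns). Those with other GT donors had 11.4% and 10.9% in mutants, against 8.58% and 8.59% in wild type (1575 introns). With CTAAT or CTAAC in the last 40 bases the share was 5.6% and 5.09% in mutants, against 3.45% and 3.45% in wild type, and without it 9.67% and 9.14% in mutants, against 6.9% and 6.95% in wild type. Introns that the reference lists as exonic in another transcript of the gene had 77.6% and 76.5% in mutants, against 70.7% and 69.2% in wild type (135 introns), and the rest had 5.06% and 4.57% in mutants, against 2.66% and 2.78% in wild type. In each of these 6 groups the libraries of mutants and wild type did not overlap. The differences between groups of introns in how far mutants exceeded wild type were not tested.

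Among introns of the fit, 22% of the short ones and 12.1% of all lengths were called in either direction. Of the 51 fitted introns with GTAAGT or GTGAGT, 15 were called higher (29.4%). Of the 111 with another GT donor, 26 were called higher and 1 lower (24.3%). By place, calls in either direction fell on 16 of 48 first (33.3%), 4 of 28 inner (14.3%), 4 of 37 last (10.8%) and 17 of 35 sole introns (48.6%). The called sole introns include those of Lcp2, Lcp3, Lcp4, CG12375 and CG12868, which entered the fit through retained pairs of the mutants only. Differences between these shares were not tested. By length, calls fell on 8 of 32 introns up to 55 bases (25%), on 11 of 57 of 56 to 60 bases (19.3%), on 10 of 57 of 61 to 65 bases (17.5%) and on 16 of 59 of 66 to 70 bases (27.1%).

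**Figure D5:**
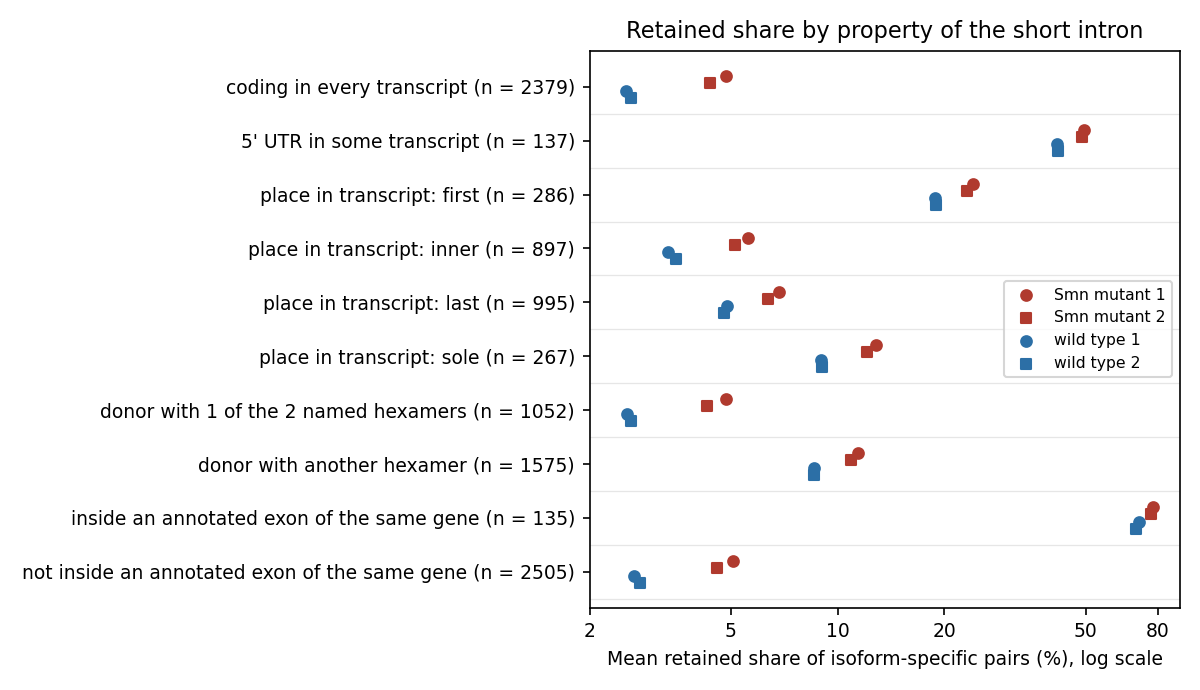
Mean retained share of isoform-specific pairs in percent (log axis) for groups of short introns that had 20 or more such pairs per library; each point is 1 library, with mutants in red and wild type in blue. The 2 named hexamers are GTAAGT and GTGAGT, and the other donors also begin with GT. Coding introns had 4.86% and 4.38% in mutants against 2.53% and 2.62% in wild type, and introns of 5′ UTRs 49.5% and 48.8% in mutants against 41.4% and 41.7% in wild type.

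Gene lists chosen for the splicing machinery and for abundant housekeeping proteins were described by their counts. Genes of the spliceosome and of snRNP assembly had 28 short introns, none in the fit, and 9 of the 13 with at least 20 pairs had a log2 change above 0, with a median of 1.23. For SR and hnRNP proteins, regulators of splice site choice, this was 4 of 5, with a median of 1.29. Cytosolic ribosomal proteins had 4 introns in the fit, 1 of them called higher (RpS21), and 31 of 35 with at least 20 pairs were above 0, with a median of 1.54. The respiratory chain had 8 in the fit, 2 of them called higher (ATPsynF and ATPsyngamma), and 41 of 51 above 0, with a median of 0.84. For the proteasome, the 1 intron in the fit was called higher (Prosalpha5), and 22 of 26 were above 0, with a median of 1.80. Translation factors had 1 intron in the fit and none called, and 25 of 34 were above 0, with a median of 0.72. Muscle genes had 1 intron in the fit, that of Mf, a thick filament protein, and it was not called (limma, adjusted p = 0.0906). The Mf intron entered the fit through retained pairs of the mutants only, so that its p-value is a description. Of the 11 muscle introns with at least 20 pairs, 4 were above 0, with a median of -0.64, while their mean retained share was 1.23% and 0.791% in mutants, against 0.145% and 0.34% in wild type. The median change and the mean share thus pointed in opposite directions for this list. The log2 ratio adds 0.5 to each count, so that with no retained pair it depends on spliced pairs only. A Pdhb intron (dm3 3R:24941409-24941469), for example, had no retained pair in any library and a log2 change of -0.91. The part of such introns in the muscle median and in the counts above 0 was not tested. Over all 2986 short introns with at least 20 pairs, 2160 were above 0, with a median of 0.77.

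The authors' Bayes factor, a ratio of evidence computed for 1 mutant and 1 wild type library at a time, reached 10, with fractions that differed by 0.2 or more, in all 4 pairings for 30 of the 8065 short introns. Of these, 27 were higher and 3 lower in mutants, and the background over all lengths was 0.77% (0.64% higher and 0.13% lower). In single pairings this number was 87 to 132. Limma called 11 of these 30 (36.7% of this list and 24.4% of limma's), and 13 of the 30 had enough pairs for the fit. In fraction, the 2 mutant libraries were above the 2 wild type libraries for 1921 short introns (23.8%, background 26.9%) and below for 920 (11.4%, background 12.2%).

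Spliced pairs of short introns, which follow the level of the spliced transcript, were tested as another readout. By limma with trend, 7 of 3995 short introns were called, 1 higher and 6 lower, against a background of 0.191% (0.0603% higher and 0.131% lower), and 891 had an unadjusted p under 0.05 (22.3%, against 26.7% of introns over 70 bases). With scaling by the median ratio over introns, 21 were called, against a background of 0.422%. Lsp1alpha had 14 and 63 spliced pairs in mutants, against 15801 and 10682 in wild type (limma, log2 change -8.96 ± 0.74 SE, adjusted p = 0.0375). The other 5 called lower lay in CG2233, CG15155, Sodh1, which encodes a sorbitol dehydrogenase, and 2 introns of CG31075. The intron of the ecdysone-dependent gene Edg91 was called higher, with 286 and 372 pairs in mutants, against 19 and 16 in wild type (limma, log2 change 3.97 ± 0.36 SE, adjusted p = 0.0387). None of these 7 introns was in the retention fit. The number of such calls was 1972 without wild type library 1 and 1230 without wild type library 2. Over 164 introns present in both fits, the log2 change in retention and that in spliced pairs had a Pearson correlation of -0.34. This is a description over introns, and both values use the same spliced pairs.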

How the data were processed

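The libraries were made with the TruSeq v2 kit, per the labels' protocols, and aligned to dm3 with TopHat2 2.0.8 and Bowtie2 2.1.0, per the submitters' processing notes. Per the file headers, the deposited MISO tables of retained introns give, for each event and each pair of libraries, the retained fraction as a posterior mean rounded to 0.01, the difference of 2 such fractions as a signed score, a Bayes factor (an evidence ratio), and the read pairs counted by the isoforms they are compatible with. MISO was version 0.4.8, per the deposited readme. Every listed event had 20 or more read pairs. Whether pairs were assigned by strand is not given in the sources used here, so reads of overlapping genes on opposite strands may be mixed.

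Intron length was taken from the event names, and groups and replicate numbers from the sample titles. From the read classes, log2((retained + 0.5)/(spliced + 0.5)) of isoform-specific pairs was taken for events that had 20 or more of them per library and averaged 10 or more of each isoform. limma 3.58.1 (R 4.3.3) modelled it by group, weighted by counting variance, with adjustment over all lengths at a threshold of 0.05. Spliced pairs, scaled to their total per library, were fitted with limma's trend option where 2 libraries had at least 20. Per-library medians and means were compared by exact permutation, whose smallest two-sided p with 2 libraries per group is 0.333. Read pairs are not independent molecules, so that weights cover counting error only. The functions were tested on simulated pairs with known changes.

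Coordinates are dm3, from the event names, unless dm6 is named, and none was converted. Introns were matched to the dm6 annotation by the lengths of exons and introns, and a match stood if 2 or more of the 10 nearest events were displaced by the same distance. A second step used intron length and the displacement of at least 5 of the 10 nearest, which added 1641 short introns. Of the 7014 matched, 129 matched more than 1 gene. Sequences came from RefSeq.

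The named introns are the 12 matched, called introns with the largest rise in mean fraction and no overlap between groups, up to 5 likewise for a fall, the 5 called introns with most pairs, the 3 shortest tested, the largest difference in each direction without a gene match, up to 3 per gene list and those of genes with the most short introns. RpS21 neighbours, Lsd-1 introns b to d, Lcp2, Lcp3, crc and the V-ATPase introns were added after their values were seen. The members, lists and tests were chosen with earlier results of these data known. Alternatives tried were other minimums, another pseudocount, no weights, a logit of the fractions, other Bayes factor and scaling settings, thinning, a replicate block, and leaving out each library.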

Additional observations from a re-analysis of the deposited data

How the results depend on the processing

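The 45 retention calls of limma among short introns became 9 with no minimum on each isoform, 68 with a minimum of 5, and 23 when counted only over introns with at least 10 pairs of each isoform in both groups. They were 14 to 58 without each library in turn, with 14 without mutant library 1 and 23 without mutant library 2. Of the 51 calls made on the logit of the fractions, 24 were among the 45. The 7 calls for spliced pairs became 21 with scaling by the median ratio, and 49 to 1972 without each library in turn, with 1972 without wild type library 1, 1230 without wild type library 2, 63 without mutant library 1 and 49 without mutant library 2. The 30 Bayes factor calls became 54 at a difference in fraction of 0.1. The difference in median fraction was 0 to 0.01 without each library in turn, with 0 without wild type library 1. The share of introns with both mutant libraries above was 41.3% with no minimum (background 42.8%) and 24.5% when pairs were also thinned to the lowest number among libraries. No background is given for thinned pairs, so that the 24.5% says nothing particular to short introns. The log2 change of the 50 base intron at dm3 3L:228244 turned to 0.38 with the logit of the fractions and was -1.20 to 0.54 without each library in turn, with 0.54 without mutant library 2, and COX5A turned to -0.0096 with the logit. The median log2 shift of short introns, 1.24, was 0.54 with at least 10 pairs of each isoform in both groups, 0.71 with no minimum and thinning, and 1.64 with a minimum of 5. Its excess over longer introns, 0.69, was 0.058, 0.24 and 1.09 in the same order. Of 340 alternatives over 32 named introns, 260 left the intron called or uncalled as it was, 64 lost a call and 13 gained one. In 3 the log2 change turned in sign. Fits without a library leave a group with 1 library, which is assumed to vary like the other group. With a replicate block limma called 35 short introns for retention, 33 of them among the 45, and 118 for spliced pairs. Deviations of same-numbered libraries correlated at 0.18 over short introns, and with only 2 pairs the numbers do not show that libraries are paired. The causes of these changes were not tested. Depth was a limit in that only 2.54% of short introns had enough pairs of both isoforms for the fit.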

Other observations

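Short introns with high retention in every library were common in both groups. A fraction of at least 0.5 was listed for 942 and 925 short introns in the mutant libraries, against 839 and 844 in wild type. Of the introns called by the Bayes factor but without enough pairs for the fit, Ranbp16, a nuclear transport receptor gene, had an intron of 62 bases with fractions of 0.66 and 0.53 in mutants, against 0.1 and 0.09 in wild type. REG, a proteasome activator gene, had 0.59 and 0.6 in mutants, against 0.18 and 0.1 in wild type, with at most 5 spliced-specific pairs in any library.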
